A study of Mus musculus with 6 samples.

Results

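The genes described here, 8 in all, set whether a cell dies or survives and were measured across cultured mouse Sertoli cells and the MSC-1 Sertoli cell line: Pmaip1, Pawr, Cidea and Casp12, which promote death or belong to death-related families, and Bcl2, Birc3, Xiap and Tnfrsf11b, which oppose it. They were taken from the authors' deposited table of probe sets past a 4-fold difference, by gene symbol, and make up 8 of its 2295 named genes with 9 of its 3198 probe sets. Because that table was selected on the size of the difference between the same groups, a difference in every one of the 8 genes was built into the choice and is a description. What the table does not hold, and is given here, is the signal of each probe set on each array and the spread between arrays. Its folds are signed, but it does not say which group a positive sign stands for, which is settled below. Any other probe sets of these genes could not be identified and have no value here. Each direction given for a gene is therefore that of its probe sets in the table.

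The primary group comprised 3 samples of aggregated Sertoli cells from young mice of the strain cross C57BL/6 x 129, and the other group 3 samples of aggregated MSC-1 cells, a single line for which the labels name no strain. Both were untreated and were left to form aggregates for 48 h in Ham's F10 medium with 10% serum. Donor age is 10 to 20 days in the growth protocol and 19 to 20 days in the series design text. MSC-1 was derived from a testicular tumour of a transgenic mouse in which the promoter of anti-Müllerian hormone drove SV40 large T antigen, a viral protein that binds p53. The labels do not state if the 3 samples in each group came from different cultures or donors, so the tests below measure only the spread between these samples, which may be technical. The series asked which genes might let grafted Sertoli cells survive and shield other cells.

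In the mitochondrial route to apoptosis, BH3-only proteins, among them the product of Pmaip1, block survival proteins of the Bcl2 family. Caspases are then activated and dismantle the cell. Inhibitor of apoptosis proteins, among them those of Birc3 and Xiap, restrain caspases or the signalling complexes upstream of them. Sertoli cells are the supporting cells of the seminiferous tubule, stop dividing around puberty in mice and survive after transplantation, where they also protect neighbouring cells. In RNA from a whole culture, fewer cells of a type and less RNA per cell cannot be told apart.

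Promoters are shown for 2 genes with more signal in primary cells (Pawr and Birc3) and 2 with more signal in MSC-1 cells (Bcl2 and Casp12). These were the genes with 1 start and a window available to print, so the even split was not chosen. Each line gives the 250 bases before the RefSeq start of the gene on assembly GRCm38.p6, read 5′ to 3′ on the gene's strand, with every GC box (GGGCGG or its complement CCGCCC) and CCAAT box (CCAAT or ATTGG) in capitals.
Pawr (chr10:108331939-108332188, plus strand): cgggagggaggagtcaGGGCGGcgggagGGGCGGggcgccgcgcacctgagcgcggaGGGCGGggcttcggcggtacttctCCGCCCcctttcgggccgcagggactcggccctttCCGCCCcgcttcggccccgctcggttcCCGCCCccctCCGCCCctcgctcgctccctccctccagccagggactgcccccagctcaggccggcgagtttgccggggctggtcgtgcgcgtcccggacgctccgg
Birc3 (chr9:7873171-7873420, minus strand): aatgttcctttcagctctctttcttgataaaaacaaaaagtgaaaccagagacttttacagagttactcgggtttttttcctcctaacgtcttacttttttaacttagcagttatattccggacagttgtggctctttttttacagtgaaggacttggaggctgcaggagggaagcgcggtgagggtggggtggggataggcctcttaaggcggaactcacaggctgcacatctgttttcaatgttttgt
Bcl2 (chr1:106714291-106714540, minus strand): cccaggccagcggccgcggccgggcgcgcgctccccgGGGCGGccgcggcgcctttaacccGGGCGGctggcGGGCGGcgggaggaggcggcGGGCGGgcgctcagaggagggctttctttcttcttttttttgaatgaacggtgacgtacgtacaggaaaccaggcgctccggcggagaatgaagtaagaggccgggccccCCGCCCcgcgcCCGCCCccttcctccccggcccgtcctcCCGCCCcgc
Casp12 (chr9:5345226-5345475, plus strand): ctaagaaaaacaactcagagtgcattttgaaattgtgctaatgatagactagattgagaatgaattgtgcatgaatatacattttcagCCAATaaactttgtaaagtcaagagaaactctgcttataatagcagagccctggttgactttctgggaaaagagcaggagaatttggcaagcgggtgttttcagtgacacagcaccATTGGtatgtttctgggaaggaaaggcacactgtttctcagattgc
The windows with more G and C were 1 of each direction. Pawr had 78.4% G and C with 7 GC boxes, and Bcl2 74.8% with 7 GC boxes, whereas Birc3 had 43.6% and Casp12 39.2%, both with 0 GC boxes. Over all 32851 windows of this length the median was 52.4% G and C, and 32.7% held at least 1 GC box on either strand. Casp12 held 2 CCAAT boxes, which 33.8% of all windows held at least once. None of the 4 windows contained the TATA box letters TATAAA on either strand, which 12.4% of all windows did. Base composition therefore did not sort these 4 genes by the group in which they were higher. For Xiap, RefSeq gave 3 starts, with 57.6%, 46.4% and 39.2% G and C in the windows before them.

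The arrays were Affymetrix arrays with 45037 probe sets fitted besides the controls, and the signals are linear values scaled by the authors to a common trimmed mean of 125. The median signal of an array lay between 23.0 and 29.8 and the 25th percentile between 5.31 and 7.63. Pearson correlations of log2(signal + 16) across probe sets were 0.965 to 0.989 within groups and 0.816 to 0.828 between them. Primary array 1 stood apart from the other primary arrays, so values without it are given with its markers further on. Between the groups, 41.0% of all probe sets passed the threshold, an adjusted p under 0.05 in limma with Benjamini-Hochberg adjustment, with 19.1% higher in primary cells and 21.9% higher in MSC-1 cells. The 3 arrays of each group did not overlap in 51.2% of all probe sets, 24.1% with primary cells above and 27.1% with MSC-1 cells above. Within the 4-fold table, 3197 of 3198 probe sets passed and as many had no overlap, which rounds to 100%, with 59.5% higher in primary cells and 40.5% higher in the line, so passing the test does not set a gene of this table apart.

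The deposited table does not name the numerator of its folds, and the array signals settled it. For all 3198 probe sets the sign of the deposited fold was the sign of the primary over MSC-1 ratio of mean signals, with 0 exceptions, so a positive fold means more signal in primary cells. The sizes were related but not equal, with a Pearson correlation of 0.969 across probe sets, which are not independent, and only 75 of 3198 ratios lay within 1% of the deposited fold. The sources used here do not say how the deposited folds were computed.

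**Figure D1:**
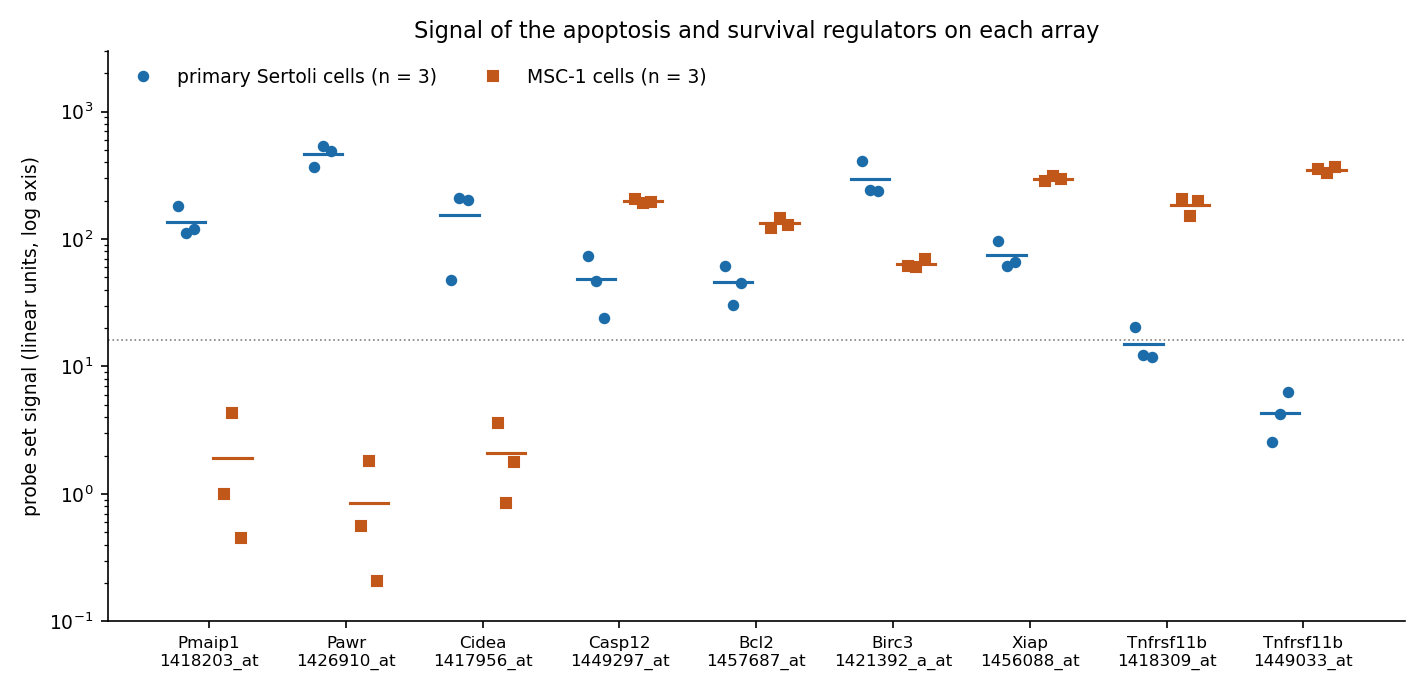
Signal of each of the 9 probe sets on each array, on a log axis, for 3 primary arrays (circles) and 3 MSC-1 arrays (squares), in replicate order from left to right; horizontal bars are group means and the dotted line marks a signal of 16, the constant added before taking logs. Pmaip1, Pawr, Cidea and Birc3 are higher in primary cells, whereas Casp12, Bcl2, Xiap and both Tnfrsf11b probe sets are higher in MSC-1 cells, and in no probe set do the groups overlap.

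Of the 4 genes placed with those that promote death, Pawr, Pmaip1 and Cidea had more signal in primary cells and Casp12 had less. Of all 2295 named genes, 62.0% had more signal in primary cells, so this count does not set death genes apart. Pawr, whose product Par-4 sensitises cells to apoptosis and binds atypical protein kinase C and WT1, had the largest difference of them. Its signals were 366.6, 532.6 and 494.4 on primary arrays 1 to 3 and 0.558, 1.80 and 0.207 on the MSC-1 arrays. All 3 MSC-1 values lay at or under the 13.1 percentile of their arrays, and all 3 primary values at or above the 88.5 percentile of theirs. The mean was 464.5 ± 86.9 (SD, n = 3) in primary cells, and the difference of log2(signal + 16) was 4.82 ± 0.16 (SE, limma adjusted p = 1.09e-06). The authors' deposited table gives 41.5-fold for this probe set, the 190th largest of the 1902 folds higher in primary cells.

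Pmaip1 encodes Noxa, a BH3-only protein induced by p53 that neutralises the survival protein MCL1. Its signals were 180.1, 112.4 and 118.9 in primary cells and 0.993, 4.29 and 0.449 in MSC-1 cells. The lowest primary array lay at the 72.9 percentile of its array and the highest MSC-1 array at the 21.8 percentile. The log2 difference was 3.08 ± 0.19 (SE, limma adjusted p = 1.66e-05), and the authors' deposited table gives 16.3-fold.

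Cidea belongs to the CIDE family, named for cell death-inducing proteins related to a DNA fragmentation factor, and its product also acts at lipid droplets. Its signals were 47.9, 211.3 and 203.1 in primary cells against 3.60, 0.854 and 1.79 in MSC-1 cells. Primary array 1 was far below the others, yet still more than any MSC-1 array. This made Cidea the gene with the widest error of the 8, with a log2 difference of 3.03 ± 0.46 (SE, limma adjusted p = 0.0014). Without primary array 1 the difference was 3.63 ± 0.12 (SE, limma adjusted p = 3.23e-06).

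Casp12, an inflammatory-group caspase linked in mice to stress of the endoplasmic reticulum, was the death-related gene among the 8 with more signal in MSC-1 cells. Its signals were 74.2, 46.5 and 24.1 in primary cells and 207.9, 192.5 and 195.6 in MSC-1 cells. The MSC-1 arrays were close together, and the primary arrays spread over a wide range below them. The MSC-1 mean was 4.12 times the primary mean, and the log2 difference was -1.82 ± 0.27 (SE, limma adjusted p = 0.0013), beside a deposited fold of 5.18 in the authors' deposited table.

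Of the 4 survival genes, Tnfrsf11b, Bcl2 and Xiap had more signal in MSC-1 cells and Birc3 had less. This side holds 38.0% of the 2295 named genes of the table, and 4 genes are too few to read the count against that share. Tnfrsf11b, which encodes osteoprotegerin, a secreted decoy receptor that binds the ligands RANKL and TRAIL, had the largest difference in this direction. Its brighter probe set gave 2.54, 4.24 and 6.26 in primary cells and 351.2, 330.2 and 369.1 in MSC-1 cells. The primary values lay between the 12.9 and 22.1 percentiles of their arrays and the MSC-1 values between the 87.3 and 88.5 percentiles. The log2 difference was -4.17 ± 0.12 (SE, limma adjusted p = 6.94e-07), and the fold of 55.9 in the authors' deposited table is the 6th largest of the 1296 higher in MSC-1 cells.

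The dimmer probe set of Tnfrsf11b went the same way with a smaller difference. It gave 20.4, 12.4 and 11.9 in primary cells and 207.3, 150.8 and 198.3 in MSC-1 cells. The log2 difference was -2.70 ± 0.17 (SE, limma adjusted p = 1.76e-05), with 12.4-fold in the authors' deposited table. The named probe sets of this gene thus matched in direction but not in size. In neither did the groups overlap, which held for 3197 of the table's 3198 probe sets. Any probe set of this gene under 4-fold would not be in the table.

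Bcl2, the founding survival member of its family, holds death effectors in check at the mitochondrion. Its signals were 61.9, 30.6 and 45.0 in primary cells and 123.0, 146.1 and 129.8 in MSC-1 cells. The groups were separate, and the difference was the smallest of the 8 genes on the log2 scale, at -1.30 ± 0.19 (SE, limma adjusted p = 0.00132). The MSC-1 mean was 2.90 times the primary mean, less than the 4.13-fold of the authors' deposited table.

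Xiap, whose product binds and blocks caspases directly, had signals of 96.3, 61.8 and 66.6 in primary cells and 284.8, 312.0 and 297.6 in MSC-1 cells. Every primary array lay well below the lowest MSC-1 array. The MSC-1 mean was 3.98 times the primary mean and the log2 difference was -1.81 ± 0.16 (SE, limma adjusted p = 9.81e-05).

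Birc3 was the survival gene with more signal in primary cells. Its product, a ubiquitin ligase of tumour necrosis factor receptor complexes that feeds the NF-kappaB pathway, is the other inhibitor of apoptosis here, and the gene is itself induced by NF-kappaB. Signals were 409.5, 244.0 and 238.3 in primary cells and 61.6, 60.6 and 69.1 in MSC-1 cells. The primary mean was 4.66 times the MSC-1 mean, with a log2 difference of 1.93 ± 0.21 (SE, limma adjusted p = 0.00026). RefSeq lists Birc2 and Birc3 as older names of each other, and the assignment to Birc3 is that of the authors' deposited table. The 2 inhibitor of apoptosis genes therefore differed in opposite directions between the same cells.

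On the log2 scale the order of sizes ran from Pawr (4.82) and Tnfrsf11b (4.17) through Pmaip1 (3.08) and Cidea (3.03) to Birc3 (1.93), Casp12 (1.82), Xiap (1.81) and Bcl2 (1.30). Pmaip1 and Cidea differed from each other by less than the SE of Cidea, and Birc3, Casp12 and Xiap by less than the SE of any of them. Pawr and Tnfrsf11b have no settled order, since the authors' deposited table gives Tnfrsf11b the larger fold (55.9 against 41.5), and no test was run between genes. The 4 genes at the top were those whose lower group had a mean signal under 16, where the added constant shortens the difference, so their sizes depend on it and are no ratio of RNA levels. Birc3, at 4.001-fold, is the member nearest the table's threshold and has the smallest fold of all 1902 on its side, and Bcl2 follows at 4.13-fold in the authors' deposited table. Probe sets just outside the threshold carry no fold there.

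**Figure D2:**
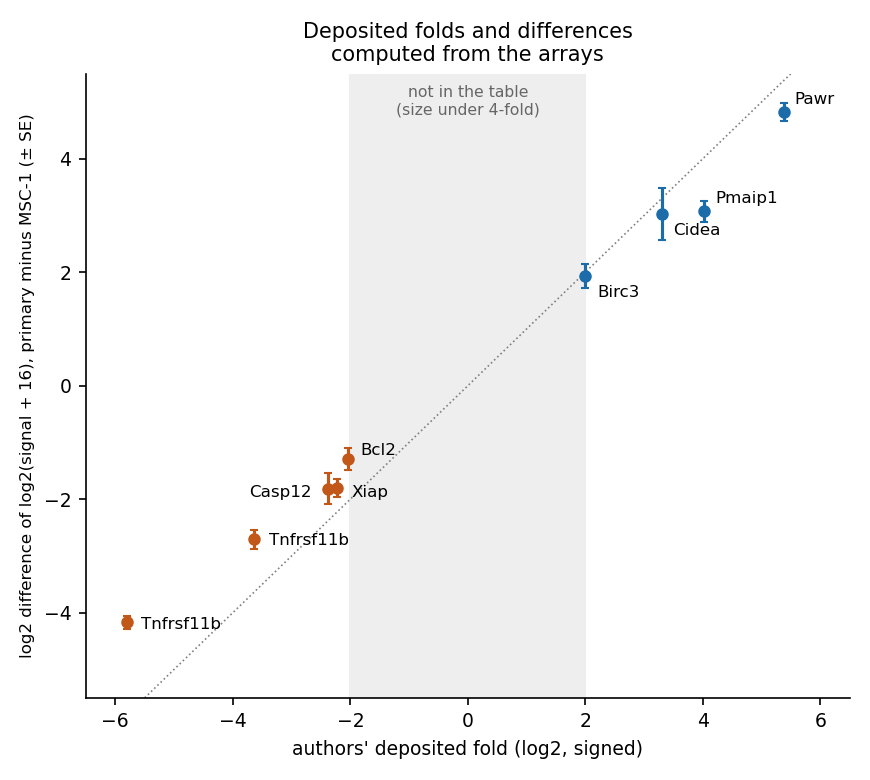
Signed log2 fold of the authors' deposited table (horizontal axis) against the log2 difference of log2(signal + 16), primary minus MSC-1, computed from the arrays (vertical axis, ± SE, 3 arrays a group) for the 9 probe sets; the dotted line marks equality and the grey band the range under 4-fold that the table leaves out. All 9 points keep their sign, Birc3 lies nearest the line and the brighter Tnfrsf11b probe set (-4.17 against -5.80) farthest from it.

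Further genes of these pathways can be named only where the authors' deposited table names them. Of 97 genes in 12 lists of apoptosis genes, with list genes not reported here left out of every count, 15 were in the table, the 8 regulators and 7 others. Counting each gene by its probe set with the highest mean, 9 of the 15 had more signal in primary cells and 6 more signal in MSC-1 cells, with 62.0% and 38.0% on these sides for the 2295 named genes of the table, so the split was near that of the table. One of the 6 is Xaf1, whose probe sets go opposite ways; counting each gene by its probe set with the largest change gave 10 and 5. The median log2 difference was 2.46 for the 15 genes and 2.14 for all 2295. The remaining 82 genes, among them Bcl2l1, Mcl1, Bax, Bbc3, Trp53, Birc2, Casp9, Fas, Fasl, Tnfsf10 and Tnfsf11, have no value here and cannot be called unchanged.

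Genes that act on inhibitor of apoptosis proteins went both ways. Diablo, whose product is released from mitochondria and displaces these inhibitors from caspases, had 2038, 2608 and 2513 in primary cells and 368.2, 383.5 and 396.4 in MSC-1 cells, a log2 difference of 2.58 ± 0.13 (SE, limma adjusted p = 7.24e-06). Septin4, in the table as Sept4, whose ARTS isoform antagonises XIAP in mice and humans, was higher in MSC-1 cells at both probe sets, with differences of -1.61 and -1.51. Xaf1, the gene of a XIAP-binding protein, had one probe set higher in primary cells by 3.12 ± 0.12 (SE) and another higher in MSC-1 cells by 2.37 ± 0.18 (SE), so no direction is given for it.

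From the list of death receptors, their ligands and adaptors, 2 of 15 genes were named in the table, Ripk3 and Tnfrsf21, both on the primary side, which holds 62.0% of the table's genes. Ripk3, the kinase that drives necroptosis, had 134.5, 156.9 and 123.7 in primary cells and 3.95, 5.82 and 2.19 in MSC-1 cells, a log2 difference of 2.95 ± 0.13 (SE, limma adjusted p = 4.28e-06). Tnfrsf21, the gene of death receptor 6, had 138.5, 55.9 and 59.5 against 2.70, 0.532 and 0.346. Primary array 1 had the highest of the primary signals for Tnfrsf21, though not for Ripk3.

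Granzyme B is a protease of killer lymphocytes. The list of granzyme B inhibitors and related serpins had 2 of 4 genes in the table. Both were higher in primary cells, the side that holds 62.0% of the table's genes. Serpinb9, the inhibitor of granzyme B, had 1443, 649.1 and 537.3 in primary cells and 32.7, 58.1 and 46.2 in MSC-1 cells, where the primary mean was 19.2 times the other. Its log2 difference was 3.74 ± 0.36 (SE, limma adjusted p = 0.000143). Serpinb6b, from the same serpin clade, stood at 3.32 ± 0.27 (SE, limma adjusted p = 6.06e-05).

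A search of the table's gene titles for the words apoptosis, cell death or caspase, made after the values were seen, added, among genes reported here, Aven and Thap1. Aven, an inhibitor of caspase activation by its title, had 546.7, 677.6 and 663.2 in primary cells and 107.1, 129.0 and 111.7 in MSC-1 cells, a log2 difference of 2.29 ± 0.13 (SE, limma adjusted p = 1.37e-05). Thap1, titled as an apoptosis associated protein, was higher in primary cells by 1.83 ± 0.13 (SE, limma adjusted p = 2.86e-05). Both lay on the primary side, which holds 62.0% of the table's genes.

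**Figure D3:**
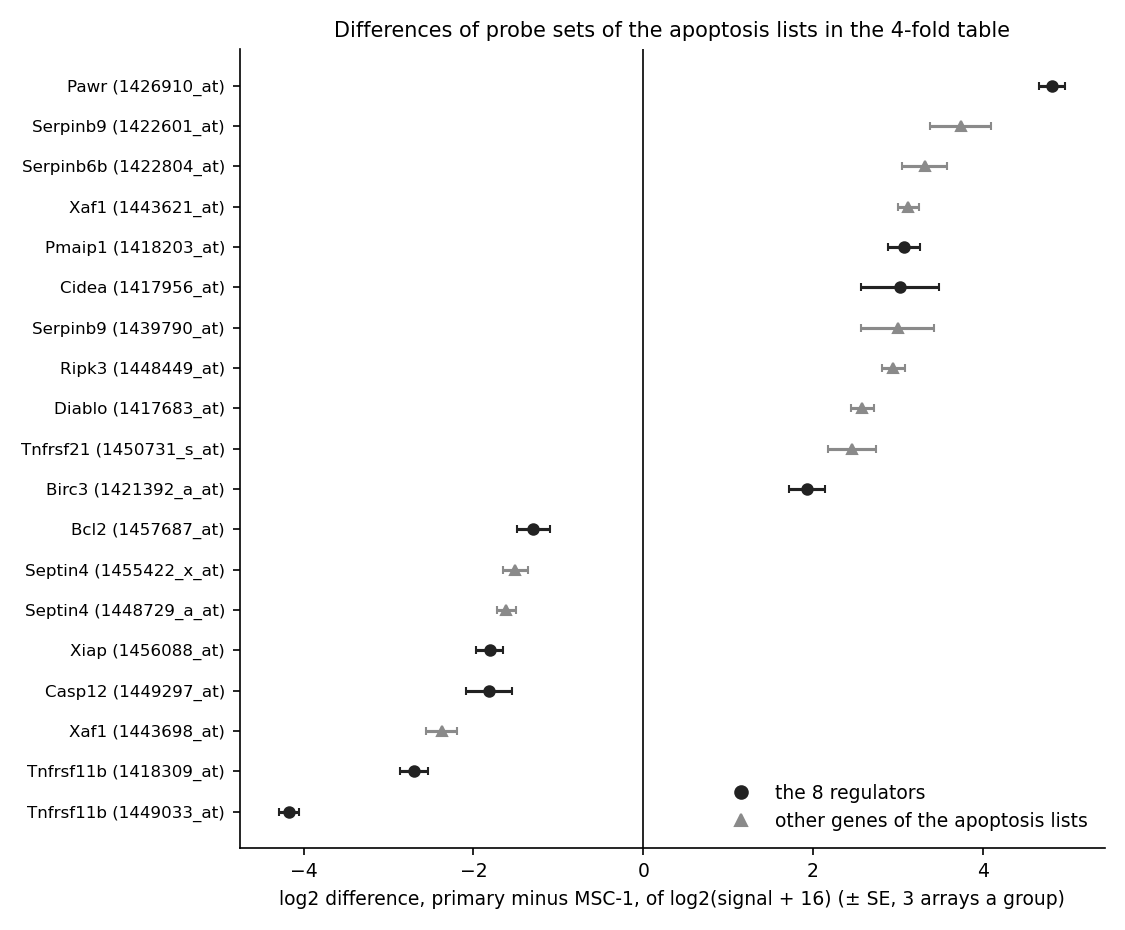
Log2 difference of log2(signal + 16), primary minus MSC-1 (± SE, 3 arrays a group), of the probe sets of 15 genes of the apoptosis lists that the 4-fold table names; circles are the 8 regulators and triangles the 7 other genes. Differences run from -4.17 for Tnfrsf11b to 4.82 for Pawr, Septin4 lies left of 0 and the serpin genes right of it, and Xaf1 has a probe set on each side.

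By distance between centred log2(signal + 16) values over the 6 arrays, the nearest of the 7 other genes reported here was Septin4 for Xiap (0.41), Bcl2 (0.61) and Casp12 (0.81). The values were not scaled, so this distance includes the difference between the groups, on which these genes were selected. It is a description and does not show shared behaviour. Pmaip1 lay nearest to Ripk3 (0.60) and Birc3 to Tnfrsf21 (0.74). Cidea had no near neighbour, with Diablo at 1.34, and neither had Pawr, with Serpinb9 at 1.97, or Tnfrsf11b, with Xaf1 at 2.23. For Xaf1 this used the probe set higher in MSC-1 cells, and its other probe set goes the opposite way.

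Primary array 1 differed from the mean of the other primary arrays by 2-fold or more in 6.47% of the table's probe sets, against 1.22% for primary array 2 and 1.09% for primary array 3 by the same measure, and 0.125% to 1.41% for the MSC-1 arrays. On the log2 scale it was higher for Casp12 by 0.85, Birc3 by 0.73, Pmaip1 by 0.58, Bcl2 by 0.55 and Xiap by 0.49, and lower for Cidea (-1.80) and Pawr (-0.47). The peritubular and smooth muscle markers of the table, Acta2 and Tagln, were both higher on array 1 by 0.99, while the Sertoli cell genes Cst12 (-1.64) and Sox9 (-0.70) and 6 of 7 germ cell markers were lower. The macrophage and leukocyte markers Mpeg1 (-0.62) and Fcgr3 (-0.57) were lower on it too. Other Sertoli cell genes, Ptgds, Clu and Inha, were higher on it by 0.56, 0.49 and 0.27. The part of these markers in the values of array 1 was not tested. Without primary array 1 the log2 differences were 1.69 for Birc3, -2.10 for Casp12, -1.97 for Xiap, -1.48 for Bcl2, 2.88 for Pmaip1, 4.97 for Pawr, and -4.11 and -2.83 for the probe sets of Tnfrsf11b, each in its original direction.

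**Figure D4:**
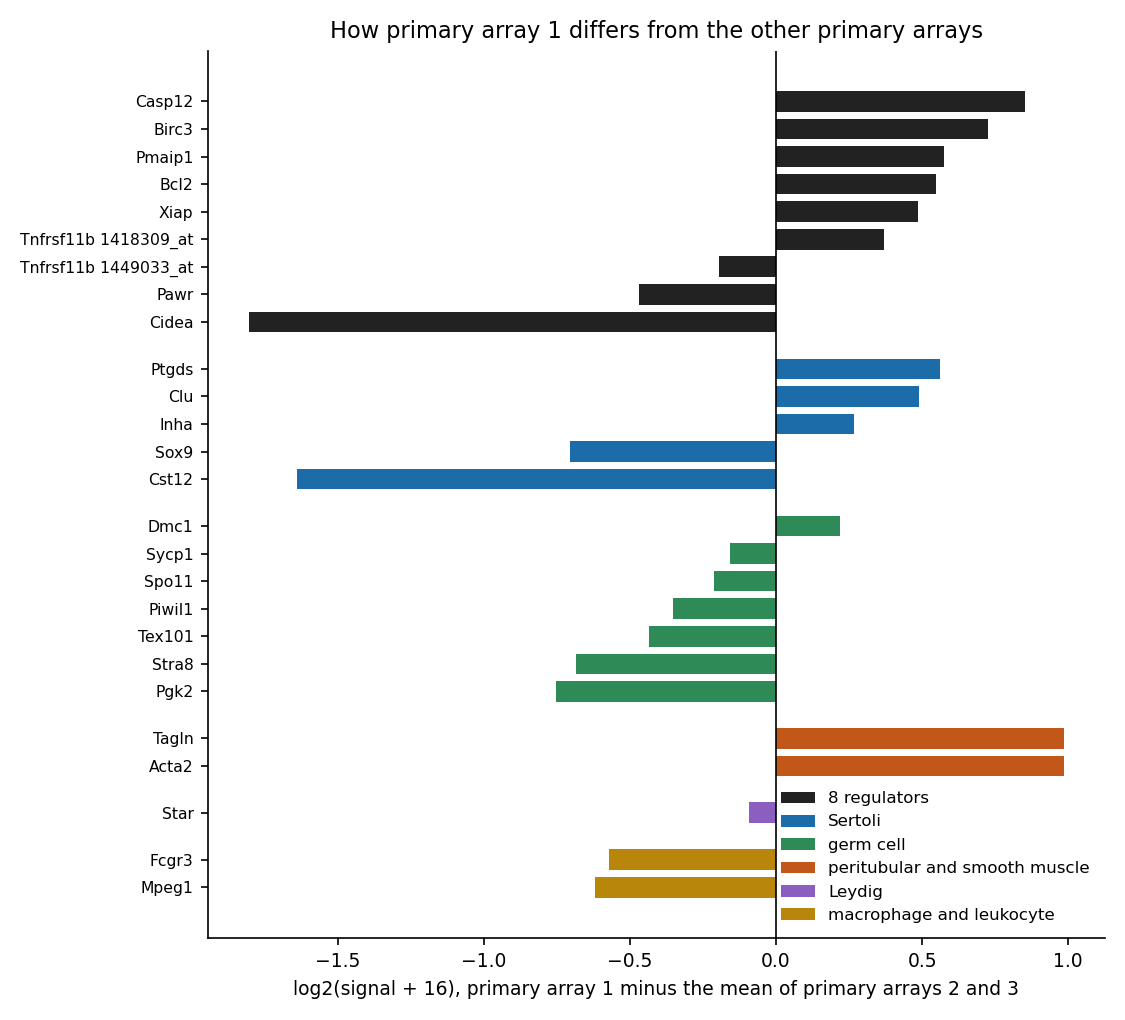
Log2(signal + 16) on primary array 1 minus the mean of primary arrays 2 and 3, for the 9 probe sets of the 8 regulators and for the marker genes of 5 testis cell types that the 4-fold table names (bars, 1 value each, no error). Casp12 and Birc3 lie at 0.85 and 0.73 and the peritubular genes Acta2 and Tagln at 0.99, while Cidea lies at -1.80. Of the Sertoli genes, Cst12 and Sox9 lie at -1.64 and -0.70, and Ptgds, Clu and Inha at 0.56, 0.49 and 0.27.

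The labelled cell types were set against their markers, as far as the table names them. Of 16 Sertoli cell markers 5 were in the table, and 4 of these, Clu, Cst12, Inha and Sox9, had more signal in primary cells, while Ptgds had more in MSC-1 cells. Sox9, which fixes Sertoli cell fate, had 131.0 to 244.1 in primary cells and 28.1 to 39.7 in MSC-1 cells. All 7 listed germ cell markers of 12, including Sycp1, Tex101 and Piwil1, were higher in primary cells, with a summed signal of 4163 to 5769 per primary array and 32.8 to 55.2 per MSC-1 array. The sums were 833 to 1765 and 77.5 to 95.3 for 2 of 7 peritubular markers, and 496 to 926 and 28.3 to 65.5 for 2 of 9 macrophage and leukocyte markers. For the Leydig cell marker Star, 1 of 7, signals were 459 to 574 in primary cells and 17.3 to 21.8 in MSC-1 cells. In the other direction, 6 of 8 Schwann cell and melanocyte markers, among them Sox10, Mbp and Dct, summed to 98.8 to 132 in primary cells and 6072 to 9197 in MSC-1 cells. None of 6 endothelial and 5 erythroid markers was named in the table. Pmaip1, Pawr, Cidea and Birc3 were thus higher in the same group as 4 of the 5 Sertoli cell markers and the named markers of germ, peritubular, Leydig and myeloid cells, and Casp12, Bcl2, Xiap and Tnfrsf11b in the same group as Ptgds and the Schwann cell and melanocyte markers. The part of these cell types in the 8 genes was not tested.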

How the data were processed

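Total RNA, 10 ug a sample, was labelled and hybridised to Affymetrix arrays, per the labels' protocols. The submitters' processing notes name GCOS, Affymetrix's array software, without role or version. The authors deposited a linear signal intensity for 45101 probe sets on 6 arrays. Every array has the same trimmed mean of 125 after 2% is cut from each tail, so the values were taken as scaled and were not normalized again. No detection calls were used, so whether a low signal exceeds background is unknown, and ratios are given only where both means exceed 16. The authors also deposited a table with a signed fold score for 3198 probe sets, which alone supplies gene symbols: 3069 probe sets have 1 symbol, 79 several and 50 none. Symbols were updated through RefSeq GRCm38.p6, matching letter case before synonyms.

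Without the 64 controls, log2(signal + 16) of 45037 probe sets was fitted with limma 3.58.1 in R 4.3.3 (lmFit, eBayes, no replicate block, two-sided, Benjamini-Hochberg over all probe sets, threshold 0.05). The fit was tested on simulated data. With 3 arrays against 3, an exact permutation test of a single gene cannot go below p = 0.10, so none was run. The members and gene lists were chosen with earlier results of these data known. Named are the 8 genes, up to 4 called genes per apoptosis list with up to 2 against them, the nearest list gene by Euclidean distance, and marker genes; the lists held fewer named genes than planned, and some list genes are not reported here. Summaries used Python 3.11.15 with pandas 2.3.3, numpy 2.4.6 and matplotlib 3.10.9. The number of arrays limits the precision. Alternatives were other constants, quantile normalization, a filter on dim probe sets, a variance trend, a replicate block and leaving out each array. Promoter windows, from RefSeq, were used for 5 of the 8 genes.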

Additional observations from a re-analysis of the deposited data

How the results depend on the processing

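Each of the 9 probe sets kept its direction and stayed past the threshold in all 108 of 108 refits, which used another constant, quantile normalization, a filter on dim probe sets, which all 9 passed, a variance trend, a replicate block, or 1 array left out. The largest limma adjusted p among them was 0.0122. The 9 probe sets came from a table selected on this same contrast, so this persistence was largely built in and is a description. No share of the table's other probe sets in these refits is given beside it. The size of the differences depended on the constant added before taking logs. The median size over the 9 probe sets was 2.70 with 16 added, 3.58 with log2(value + 1) and 1.59 with log2(value + 64), since low signals enter the log nearly unchanged with the small constant. Quantile normalization moved the median difference of all probe sets from -0.01 to -0.09 on the log2 scale, and the dim filter to -0.14, as it kept 27022 probe sets. With the replicate number as a block, 17029 probe sets were called in place of 18465, and all 9 of the regulators were among them. Deviations of same-numbered arrays correlated at -0.06, -0.09 and 0.06, so the numbers were not treated as pairs, and no primary array correlated best with the MSC-1 array of its own number. Counts of all called probe sets ranged from 15133 to 19310 with 1 array left out. The sign of the deposited folds was that of the array ratios for 3198 probe sets with geometric means and with medians too, which were added after seeing the data. Signals near the bottom of an array, as for Pawr, Pmaip1 and Cidea in MSC-1 cells and Tnfrsf11b in primary cells, limit how large a difference can be stated.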
